A study of Mus musculus with 6 samples.

Results

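MHC class I antigen processing was followed through 9 genes in murine 393P lung tumour cells with and without depletion of MKK4. The genes were B2m, Tap1, Tap2, Tapbp, Psmb8, Psmb9, Psmb10 and Erap1, which make and load class I peptides, and Cd274, the gene of the checkpoint ligand PD-L1. Every probe set that the platform annotation pairs with exactly 1 of these genes was taken, which gave 16 of the 45101 probe sets on the array, and the 9 genes are 9 of the 18193 genes measured. Tap1 had 4 probe sets, B2m, Tapbp, Psmb8 and Erap1 had 2 each, and Tap2, Psmb9, Psmb10 and Cd274 had 1 each.

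Class I molecules show peptides from inside the cell to CD8 T cells. Proteins are cut by the proteasome, whose catalytic subunits can be exchanged for the interferon-inducible subunits encoded by Psmb8, Psmb9 and Psmb10. The TAP transporter carries the peptides into the endoplasmic reticulum, ERAP1 trims them, and tapasin holds the empty class I molecule at the transporter until a peptide binds. Interferon gamma raises nearly all of these genes together, and PD-L1 with them, and tumours often carry low levels of them.

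RNA came from 3 samples that carried a short hairpin RNA (shRNA) directed at mouse MKK4 and 3 samples with a control vector, called scr for scrambled in the labels, 1 array each. The sample descriptions number them within each group and do not say whether they were grown apart. Each sample is called a culture here. MKK4, the product of Map2k4, is a kinase upstream of JNK and p38. Both groups are the same 393P population, grown as a mass culture from a primary lung tumour of mice with the p53R172H∆g/+ and K-rasLA1/+ genotype. Both groups thus carry those tumour alleles. The labels describe retroviral infection in one place and Lipofectamine transfection in another, and they state neither whether the cells were cloned after that nor any interferon treatment.

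The values are deposited intensities, 1 per probe set and array, in arbitrary units with a floor at 1. The array medians lay between 92 and 95.76 units. The trpnX probe sets, controls for a bacterial transcript, reached at most 26.45 to 39.47 units depending on the array, and a probe set is called above background here where it exceeded the brightest trpnX control of its own array. Changes are log2 differences, MKK4 shRNA minus control vector, of quantile-normalized intensities with a pseudocount of 16, which understates changes of dim genes. They were tested with limma and Benjamini-Hochberg adjustment at 0.05 over all 18193 genes, each on its brightest probe set, and again over all 45037 probe sets that are not controls. Since each group is 3 samples of 1 population, a p-value here weighs a change against the spread between those samples. Whether that spread includes separate growth is not stated in the sample descriptions. Map2k4 itself gave 240.12, 294.9 and 287.42 units in shRNA cultures, against 700.34, 638.24 and 597.42 units in control cultures, a log2 change of -1.21 (limma adjusted p = 0.000127). Keratin genes of an epithelial cell were bright in both groups, Krt18 averaging 14322 and Krt8 9224 units in shRNA cultures, against 13973 and 8540 units in control cultures. Of 8 epithelial markers Krt19 rose (0.23) and Epcam (-0.35), Cdh1 (-0.14) and Cldn7 (-0.13) fell, beside 6.37% of all genes called higher and 5.39% called lower. The summed level of these markers was 49391 to 50703 units in shRNA cultures and 50310 to 50961 units in control cultures, and none averaged below the controls for background. Whether they bear on the members was not tested. None of 17 leukocyte markers passed the test, beside 11.8% of all genes called in either direction. Their summed level was 2051 to 2461 units in shRNA cultures and 2226 to 2337 units in control cultures. Of the 17, 6 averaged under the brightest trpnX value and the others did not. Csf1r, a macrophage receptor gene, averaged 725 ± 112 units in shRNA cultures and 771 ± 45.5 units in control cultures (SD, n = 3 each). Adgre1, Laptm5, Cd74 and Cd8a averaged 235, 227, 188 and 164 units in shRNA cultures, against 239, 223, 170 and 185 units in control cultures. The pan-leukocyte gene Ptprc read 34.5 to 48.75 units in shRNA cultures and 28.48 to 38.98 units in control cultures, within or just above the range of the trpnX controls, and Cd3e stayed at 4.06 units or less on all 6 arrays. Whether leukocyte RNA bears on the members was not tested.

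Of the 9 genes, Erap1 rose in the shRNA cultures and none fell. That is 1 of 9, beside 11.8% of all genes called in either direction, 6.37% called higher and 5.39% called lower, so the share of called members is close to that of genes at large. The median log2 change was 0.02 over the 9 genes and -0.01 over all genes, with 5 members positive and 4 negative. The 4 include Psmb8, which was not above background on any array. Among the 16 probe sets 1, the brighter one of Erap1, was called, higher, beside 3.57% of all probe sets called higher and 2.79% lower, 6.37% in all. In such bulk samples, fewer expressing cells and less RNA per cell cannot be told apart. After normalization the groups did not overlap in 3 of the 9 genes, all higher (Tap1, Psmb10 and Erap1), beside 28.5% of all genes, 14.5% higher and 14% lower. They did not overlap in 4 of the 16 probe sets, 3 higher and 1 lower, beside 23.1% of all probe sets, 11.7% higher and 11.4% lower. The lower one was 1420274_at, a dimmer probe set of Tap1, so Tap1 stands on both sides. As deposited, the brightest Tap1 probe set overlapped, with 46.39 units in shRNA replicate 3 and 46.62 units in control replicate 3.

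**Figure D1:**
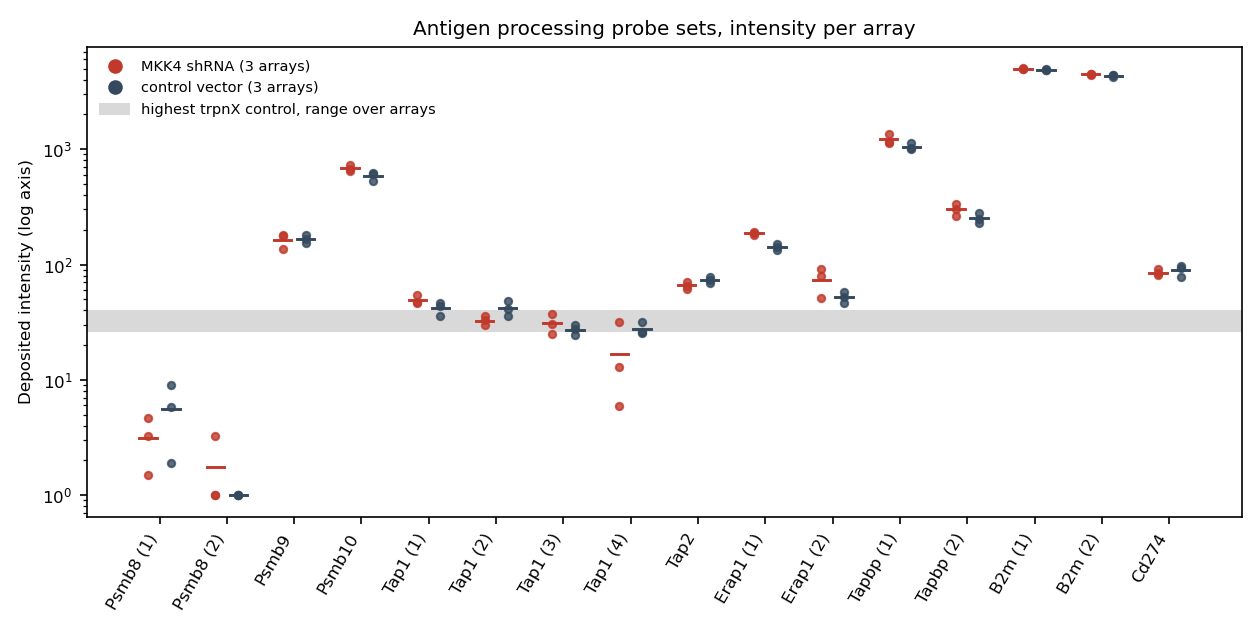
Deposited intensity (log axis, arbitrary units) of each of the 16 probe sets on each array, MKK4 shRNA left in red and control vector right in blue, with bars at the means of 3 arrays and numbers in brackets counting the probe sets of a gene. The grey band spans the brightest trpnX control over the arrays, 26.45 to 39.47 units; both Psmb8 probe sets lie below it, those of Tap1 lie in, near or below it, down to 5.96 units, and B2m stands at or above 4240.72 units on every array.

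The catalytic subunits of the immunoproteasome were not detected alike. Psmb8, which encodes the chymotrypsin-like subunit LMP7, read 3.23, 1.51 and 4.7 units in shRNA cultures, against 9.06, 5.79 and 1.89 units in control cultures, on its brighter probe set 1444619_x_at. The other Psmb8 probe set, 1422962_a_at, stood at the floor of 1 unit on 5 of 6 arrays and at 3.27 units in shRNA replicate 3. Both were under the trpnX controls on all 6 arrays, so Psmb8 was not above background in either group, and no fold is given.

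Psmb9, which encodes the subunit LMP2, was above background throughout, with 178.52, 177.39 and 137.13 units in shRNA cultures and 181.62, 166.81 and 153.66 units in control cultures. The groups overlapped, with shRNA replicate 3 the lowest of all arrays. The log2 change of Psmb9 was -0.03 with a 95% interval of -0.29 to 0.22 (limma adjusted p = 0.899).

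Psmb10, which encodes the subunit MECL-1, read 646.71, 677.59 and 725.5 units in shRNA cultures and 534.46, 620.25 and 606.26 units in control cultures. Every shRNA value lay above every control value. The log2 change of Psmb10 was 0.19 with an interval of 0.03 to 0.36 and did not pass over all genes (limma unadjusted p = 0.0274, adjusted p = 0.14).

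The constitutive subunits that these replace are encoded by Psmb5, Psmb6 and Psmb7. Psmb6, the partner of Psmb9, averaged 3599 ± 39.6 units in shRNA cultures and 2882 ± 71.8 units in control cultures (SD, n = 3 each), a rise of 0.31 on the log2 scale (limma adjusted p = 0.00118). Psmb5, the partner of Psmb8, rose by 0.19 (limma adjusted p = 0.0049), and Psmb7, the partner of Psmb10, gave 0.04 (0.475). Within each array, Psmb9 less Psmb6 was lower with the shRNA by a log2 difference of -0.34, and Psmb10 less Psmb7 was higher by 0.15. In both pairs the groups did not overlap, as was so for 28.5% of all genes taken singly. Both exact two-sided permutation tests gave p = 0.1, the smallest that 3 against 3 allows (adjusted p = 0.1 over the 2 pairs). Without overlap that p is fixed, and the pairs were chosen after seeing the data, so these tests add no support. The unequal change in the Psmb9 pair thus came with a called rise of Psmb6 and no called change of Psmb9.

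Tap1 and Tap2 together encode the peptide transporter. Tap1 lies head to head with Psmb9 on chromosome 17, and Psmb8 and Tap2 are its next neighbours. The start sites of Psmb9 and Tap1 are separated by 225 bases, which both genes share as their upstream sequence and which is shown because 1 of its genes was above background and the other hardly so. The bases are from RefSeq (GRCm38.p6, chr17:34187331-34187555, plus strand, reading from Psmb9 towards Tap1), all in lower case because none of the motifs searched was found in them.
Psmb9-Tap1 interval: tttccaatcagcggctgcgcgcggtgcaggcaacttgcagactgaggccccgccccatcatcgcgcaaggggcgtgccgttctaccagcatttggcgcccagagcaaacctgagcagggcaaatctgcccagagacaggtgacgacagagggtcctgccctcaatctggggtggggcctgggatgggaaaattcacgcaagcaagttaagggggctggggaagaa

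The brightest Tap1 probe set, 1449803_x_at, read 54.21, 47.41 and 46.39 units in shRNA cultures and 35.59, 43.32 and 46.62 units in control cultures. It can match several transcripts, and it exceeded the trpnX controls on 5 of 6 arrays. Its log2 change was 0.18 with an interval of -0.08 to 0.44 (limma adjusted p = 0.396).
The other 3 Tap1 probe sets disagreed in sign. Probe set 1420274_at read 35.46, 32.81 and 29.61 units in shRNA cultures and 48.25, 41.38 and 35.73 units in control cultures, a log2 change of -0.24 that did not pass (limma adjusted p = 0.365). Probe sets 1448177_at and 1416016_at were under the trpnX controls on all arrays and gave 0.12 and -0.49, with shRNA cultures of the second running from 5.96 to 31.78 units. These Tap1 values do not settle a direction, and with 3 arrays a group a change of the Tap1 gene under 0.42 on the log2 scale would not have passed.

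Tap2 read 65.41, 61.75 and 70.16 units in shRNA cultures, against 69.78, 77.82 and 73.84 units in control cultures, on 1453913_a_at. The groups touched, since the highest shRNA value lay above the lowest control value. The log2 change of Tap2 was -0.14 with an interval of -0.38 to 0.09 (limma adjusted p = 0.47).

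Erap1 encodes the aminopeptidase that trims peptides in the endoplasmic reticulum to the length that class I molecules bind. It was the member that rose. Its brighter probe set, 1416942_at, read 187.78, 191.25 and 179.79 units in shRNA cultures and 141.69, 149.68 and 134.65 units in control cultures. The 3 shRNA values lay close together and all above the control values. Erap1 averaged 186 ± 5.88 units in shRNA cultures and 142 ± 7.52 units in control cultures (SD, n = 3 each), a 1.27-fold rise, with a log2 change of 0.35, an SE of 0.077, an interval of 0.17 to 0.52 and a limma adjusted p of 0.024.

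The dimmer Erap1 probe set, 1439068_at, read 50.82, 90.87 and 79.32 units in shRNA cultures and 52.19, 57.78 and 46.18 units in control cultures. Here shRNA replicate 1 lay among the control values and the other shRNA cultures above them. The log2 change was 0.37, of the same sign and size, with an interval of -0.07 to 0.81, and did not pass (limma adjusted p = 0.369). The call of Erap1 was lost with 5 arrays in 5 of 6 cases: adjusted p was 0.0596, 0.0881 and 0.0611 without shRNA replicate 1, 2 or 3, and 0.0695 and 0.0841 without control replicate 1 or 3. It was also lost with the mean of its probe sets (0.0894) and with chromosome centring (0.0708), in which the log2 change was 0.27, while without control replicate 2 it held (0.0463). Genes of chromosome 13, where Erap1 lies, had a median log2 change of 0.05.

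**Figure D2:**
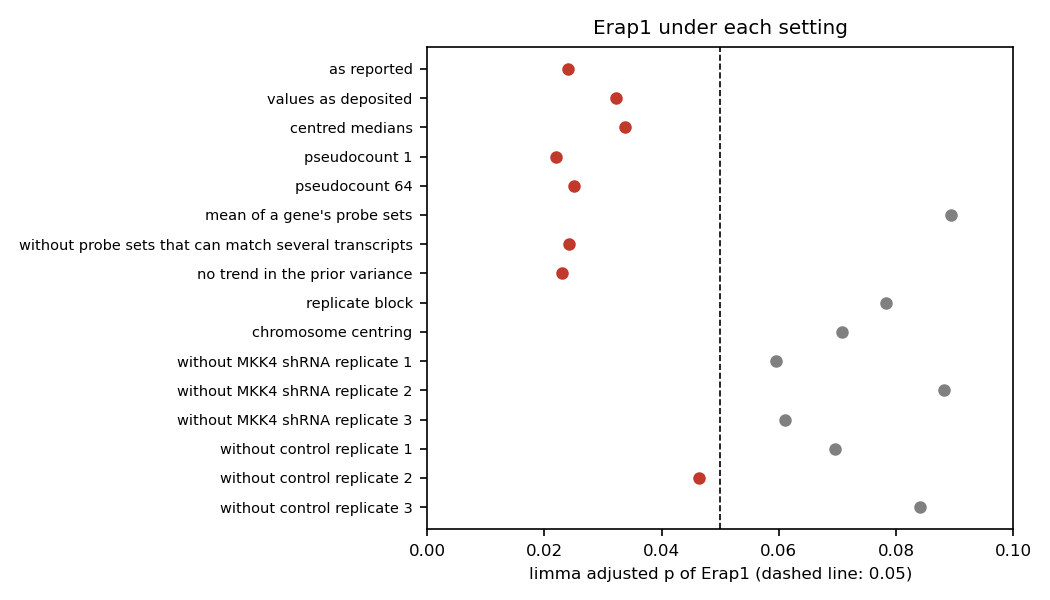
Limma adjusted p of Erap1 (x axis) under each setting (rows), red where it was under 0.05 and grey where it was not, with the threshold as a dashed line. Erap1 was called as reported and in 7 of 15 other settings, and all adjusted p-values lay between 0.0219 and 0.0894.

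The bases before the start of Erap1 are shown with those of B2m, since these were the 2 members of 8 with a promoter sequence that held an interferon-stimulated response element core, one of them called and the other not. Windows run from 250 bases before the RefSeq start to 10 after it (GRCm38.p6, plus strand both), at chr13:74639603-74639862 for Erap1 and chr2:122147437-122147696 for B2m. Capitals mark motif matches on either strand.
Erap1: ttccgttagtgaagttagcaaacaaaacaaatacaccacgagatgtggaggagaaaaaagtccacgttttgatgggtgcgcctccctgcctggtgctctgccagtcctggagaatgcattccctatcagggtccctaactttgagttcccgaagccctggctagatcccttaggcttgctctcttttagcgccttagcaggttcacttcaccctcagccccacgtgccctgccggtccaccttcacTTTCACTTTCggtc
B2m: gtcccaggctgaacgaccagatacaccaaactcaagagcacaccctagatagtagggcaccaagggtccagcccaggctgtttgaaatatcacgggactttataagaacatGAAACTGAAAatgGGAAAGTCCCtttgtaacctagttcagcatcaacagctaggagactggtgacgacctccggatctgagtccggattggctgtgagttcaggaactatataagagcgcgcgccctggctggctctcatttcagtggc
The interferon core was searched as GAAA, any 2 bases and GAAA again, a pattern that 3.07% of 32851 RefSeq promoter windows of the same length hold on either strand. In Erap1 it lies on the other strand from 4 bases before the start and runs across it, and in B2m it starts 139 bases before the start. B2m also holds a match to an NF-kappaB site, searched as GGGA, any 2 bases and TTCC, and present in 1.26% of windows, 126 bases before the start. An AP-1 site (TGANTCA, in 7.03% of windows) was found in none of the 8 member windows, and a gamma-activated sequence (TTCNNNGAA, in 7.33%) in that of Psmb8 alone, without overlap between matches. Such matches describe letters in these windows and were not linked here to binding or to the changes.

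Tapbp encodes tapasin, the chaperone that ties class I molecules to the transporter. Its brighter probe set, 1421812_at, read 1133.05, 1356.54 and 1158.62 units in shRNA cultures, against 1021.73, 1000.27 and 1126.39 units in control cultures. Every shRNA value was the higher as deposited, by a narrow margin that was gone after normalization. The log2 change of Tapbp was 0.20 with an interval of 0.04 to 0.36 and did not pass over all genes (limma unadjusted p = 0.0201, adjusted p = 0.114). The other Tapbp probe set, 1450378_at, gave 265.49, 332.78 and 301.95 units in shRNA cultures and 228.8, 280.47 and 248 units in control cultures, a log2 change of 0.22 (limma adjusted p = 0.257).

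B2m encodes beta-2 microglobulin, the light chain without which class I molecules do not reach the surface. It was bright and nearly level. Probe set 1452428_a_at read 4976.69, 5021.65 and 4952.88 units in shRNA cultures and 4922.6, 4859.51 and 4849.04 units in control cultures, and 1449289_a_at read 4399.98, 4478.31 and 4525.94 units in shRNA cultures and 4399.22, 4240.72 and 4401.45 units in control cultures. As deposited the shRNA values of the first stood slightly above the control values, and after normalization the groups overlapped on both. The log2 change of the B2m gene was 0.02 with an interval of -0.04 to 0.07 (limma adjusted p = 0.776), the tightest interval of the 9 genes. Chromosome centring gave 0.10 and an adjusted p of 0.0465 for B2m, where genes of chromosome 2 had a median log2 change of -0.07.

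Cd274, which encodes PD-L1, the ligand that restrains T cells through PD-1, read 81, 90.64 and 83.71 units in shRNA cultures and 97.65, 78.55 and 93.83 units in control cultures on 1419714_at. All 6 values were above the trpnX controls, and the control cultures spanned the shRNA cultures. The log2 change of Cd274 was -0.07 with an interval of -0.32 to 0.18 (limma adjusted p = 0.77). A change of at least 0.40 would have been needed to pass at the spread of Cd274, against 0.091 for B2m and 0.29 for Erap1.

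**Figure D3:**
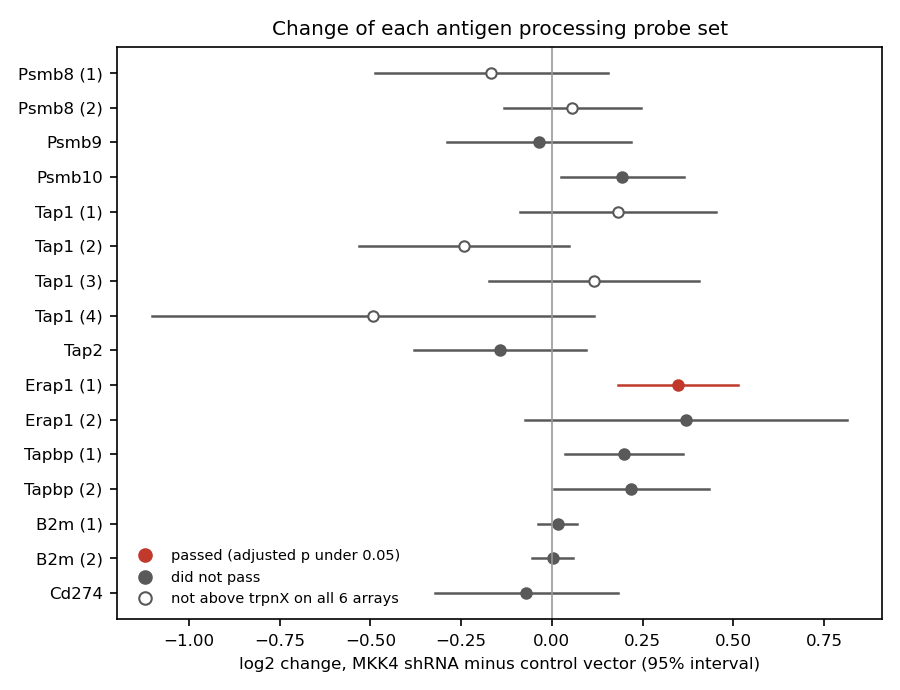
Log2 change of each of the 16 probe sets, MKK4 shRNA minus control vector (x axis), with 95% intervals from limma, red where it passed over all probe sets and open where the probe set was not above the trpnX controls on all 6 arrays. The brighter Erap1 probe set is the one that passed, the intervals of Tap1 reach from -1.10 to 0.45, and those of B2m are the narrowest.

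The class I heavy chains and loading partners gave a mixed picture around the members. H2-K1 and H2-D1, the classical heavy chain genes, averaged 2996 ± 92.0 and 3012 ± 91.9 units in shRNA cultures, against 3005 ± 52.8 and 2821 ± 95.2 units in control cultures (SD, n = 3 each). Their log2 changes were -0.02 and 0.08 (limma adjusted p = 0.803 and 0.364), and since their brightest probe sets can match several class I transcripts, the genes may not be separable. None of 8 measured heavy chain and class I-like genes passed, beside 11.8% of all genes called in either direction. Of 9 loading and folding partners 2 fell and none rose, beside 5.39% of all genes called lower. Pdia3, the gene of the disulphide isomerase ERp57 in the loading complex, gave 3143 ± 258 units in shRNA cultures and 4202 ± 216 units in control cultures (SD, n = 3 each), a log2 change of -0.44 (limma adjusted p = 0.00167). Calr, the gene of the lectin chaperone calreticulin, gave 1617 ± 84.1 units in shRNA cultures and 2024 ± 47.9 units in control cultures (SD, n = 3 each), a log2 change of -0.33 (limma adjusted p = 0.00766), with -0.34 and -0.37 on its other probe sets. Both genes were called in all 16 other settings. The other Pdia3 probe set was far dimmer, at 40.8 units in shRNA cultures and 53.3 units in control cultures. It gave -0.28 and did not pass over all probe sets (limma adjusted p = 0.358). Canx, the gene of calnexin, gave 0.01 (0.9). So the RNA of 2 genes whose products work beside tapasin in the loading complex was lower, while the tapasin gene itself was not called in either direction. The proteins were not measured here.

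Of 11 proteasome partners and activators 4 rose and none fell, beside 6.37% of all genes called higher and 5.39% called lower. Beside Psmb5 and Psmb6 these were Psmb3, which encodes a structural beta subunit, with a log2 change of 0.31 (limma adjusted p = 0.00667), and Psme3. Psme3, which encodes the nuclear activator PA28 gamma, averaged 513 ± 51.5 units in shRNA cultures and 343 ± 20.5 units in control cultures (SD, n = 3 each). After normalization with the pseudocount Psme3 rose 1.45-fold (limma adjusted p = 0.00198). Its other probe sets gave log2 changes of 0.36 and -0.04, and the mean of its probe sets gave 0.28 (adjusted p = 0.0353), against 0.54 on the brightest. Psme1, which encodes the interferon-inducible activator subunit PA28 alpha, gave 0.15 and did not pass (0.124). Psme2, which encodes PA28 beta, was not analysed here. Of 8 other peptide-cutting enzymes 1, the insulin-degrading enzyme gene Ide, fell and none rose, beside 5.39% of all genes called lower and 6.37% called higher. Ide changed by -0.16 on the log2 scale (limma adjusted p = 0.0328), a call made in the test as reported and in 6 of 16 other settings.

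Upstream, 3 of 22 interferon signalling genes and class I regulators rose and 1 fell, beside 6.37% of all genes called higher and 5.39% called lower. The interferon receptor genes Ifngr2 (0.39, limma adjusted p = 0.0154), Ifnar2 (0.25, 0.0196) and Ifngr1 (0.15, 0.0444) were the ones that rose, and the kinase gene Jak2 (-0.21, 0.0163) was the one that fell. These calls held in 13, 7, 5 and 7 of 16 other settings in that order. Over all probe sets, the dimmer one of Ifngr2 passed too (0.46, limma adjusted p = 0.0282). The dimmer ones of Ifnar2 gave -0.01 and 0.50 and that of Jak2 -0.09, and none of these passed. The single Ifngr1 probe set did not pass over all probe sets (limma adjusted p = 0.0669). Irf1, an interferon-induced activator of class I genes, gave -0.04 (0.714), and Jak1, a kinase of both receptor types, -0.05 (0.708). Nlrc5, the transactivator of class I genes, read 20.97 to 38.99 units in shRNA cultures and 37.78 to 44.82 units in control cultures, a level in or near the range of the trpnX controls, with a log2 change of -0.24 that did not pass (0.452).

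Of 22 interferon-stimulated genes 3 rose and none fell, beside 6.37% of all genes called higher and 5.39% called lower. Ifi35 averaged 879 ± 81.5 units in shRNA cultures and 632 ± 11.9 units in control cultures (SD, n = 3 each), a log2 change of 0.45 (limma adjusted p = 0.000975), and Ifih1, the gene of the RNA sensor MDA5, gave 0.50 (0.0226). Parp14 read 30.88, 62.77 and 45.12 units in shRNA cultures and 14.65, 12.27 and 16.85 units in control cultures, with every control value under the trpnX controls, so no fold is given (limma adjusted p = 0.0127). The call of Ifi35 held in 16 of 16 other settings, that of Ifih1 in 9 of 15 (adjusted p up to 0.0852) and that of Parp14 in 12 of 15 (up to 0.0607). The Ifih1 call was lost without any 1 shRNA culture or without control replicate 2 or 3, and the Parp14 call without shRNA replicate 3 or control replicate 1 or 2. Fully 9 of the 22 had a mean under the brightest trpnX value, among them Ifit1, at 25.16 to 26.88 units in shRNA cultures and 21.3 to 25.43 units in control cultures. The median log2 change of the list was 0.09, against -0.01 over all genes.

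Among 16 other checkpoint and co-stimulatory ligands and their partners, Cd47 rose and none fell, beside 6.37% of all genes called higher. Cd47, which encodes a signal that restrains macrophages, averaged 2300 ± 107 units in shRNA cultures and 1786 ± 72.5 units in control cultures (SD, n = 3 each). After normalization with the pseudocount Cd47 rose 1.27-fold (limma adjusted p = 0.00198). Its other probe sets gave 0.04 to 0.27 and none of them passed over all probe sets, and the mean of its probe sets gave 0.19, against 0.35 on the brightest. Cd276, the gene of B7-H3, gave -0.08 (0.503), and Cmtm6, whose product keeps PD-L1 at the surface, gave -0.01 (0.904). The dimmer Cmtm6 probe set gave 0.19 and did not pass over all probe sets (limma adjusted p = 0.391).

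**Figure D4:**
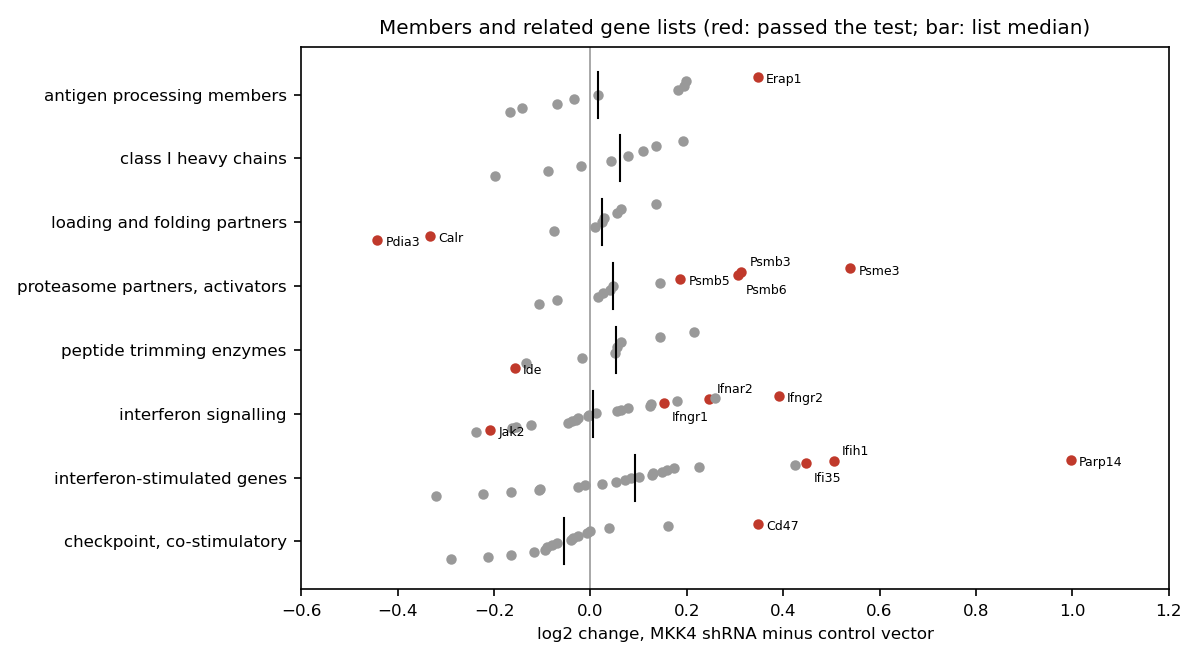
Log2 change of each gene, MKK4 shRNA minus control vector (x axis), for the 9 members and 7 related gene lists (rows), with genes that passed the limma test in red and named, and a bar at each list's median. One member, Erap1, passed, and Pdia3 and Calr lie furthest to the left.

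The genes whose pattern over the 6 arrays was most like that of Erap1 were Sirt5, Sec24d, Wrnip1, Creg1 and Ltn1, with Pearson r of 0.9942, 0.9941, 0.9941, 0.994 and 0.9935 among 9093 genes brighter than the median gene. The 6 arrays are 2 groups of 3, so r is mostly set by the difference between groups. The log2 changes of the first 4 were 0.32, 0.47, 0.19 and 0.72, and all 4 rose, a call that held in 15, 16, 14 and 16 of 16 other settings in that order. Ltn1 gave 0.11 and did not pass (limma adjusted p = 0.149).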

How the data were processed

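RNA of 3 MKK4 shRNA and 3 control vector cultures was labelled with biotin and read on 1-colour arrays from Affymetrix, per the labels' protocols. The deposited values are intensities per probe set on a linear scale. How the authors summarised probes, corrected background or normalized is not given in the sources used here, and the arrays' number limits the precision.

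Intensities plus a pseudocount of 16 were put on the log2 scale and quantile-normalized, and 64 control probe sets were left out. In the platform annotation 34945 probe sets have 1 gene, 932 have more, and 9160 are unnamed. A gene took its probe set of highest mean, and 18031 of 18193 genes were found in the GRCm38.p6 table. Groups were compared with limma 3.58.1 in R 4.3.3 (lmFit, eBayes with a variance trend, group as the single term). A trial on simulated data drew independent noise for each gene and array. It could not show effects shared within a group of cultures, and no support is drawn from it. Promoters are from RefSeq for 8 of 9 members (not Tap2). The alternatives are those of the closing section. Chromosome centring subtracted, per array, the median deviation of a chromosome's genes from their means. Members, gene lists and motifs were chosen with earlier results of these data or the sequences known, and the subunit pairs after seeing the data. Named genes were the members, Map2k4, up to 4 called genes of each list by size, a fixed set and the 5 genes most like the member with the largest called change; Cmtm6, Ifit1 and the marker genes were named after their values were seen.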

Additional observations from a re-analysis of the deposited data

How the results depend on the processing

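The member genes called higher numbered 1 as reported, 2 without the dimmer features (Tapbp and Psmb10, adjusted p = 0.0341 and 0.04999, with 3 members left), and 0 with the mean of a gene's probe sets and with the replicate block. Chromosome centring called 1, B2m in place of Erap1. Leaving out 1 array gave 0 to 1 member genes higher and 0 member probe sets higher. The member probe sets called higher were 1 as reported, 2 without the dimmer features and 0 with the replicate block. The share of all features called without the dimmer features is not given here. The member counts of that setting are thus not read as a result about the members. No member was called lower under any alternative. Of all genes, 1158 were higher and 981 lower as reported; 565 were lower with the values as deposited and 561 with centred medians. Without a variance trend 654 were higher and 473 lower, and with the replicate block 686 and 520. Leaving out 1 array gave 639 to 913 higher and 513 to 754 lower. Map2k4 was called throughout, at -1.28 to -1.09.

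The sign of 5 uncalled genes changed with the setting. With probe sets averaged, Tap1 turned to -0.11, H2-K1 to 0.0084 and Canx to -0.0042. Leaving out probe sets open to cross-matching gave -0.24 for Tap1 and 0.057 for Psmb8. Psmb8 was not above background on any array, so its sign is not read as a direction. Chromosome centring turned Psmb9 to 0.0027, H2-K1 to 0.017 and Canx to -0.063. Leaving out 1 array gave -0.097 to 0.066 for Psmb9 (above 0 without shRNA replicate 3 or control replicate 1), -0.049 to 0.011 for H2-K1 (above 0 without shRNA replicate 3) and -0.015 to 0.025 for Canx (below 0 without control replicate 2). The causes were not tested.

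Same-numbered cultures did not deviate together (r = -0.03, -0.01 and -0.11, and 0 of 6 arrays correlated best with its own number). That cannot exclude that same-numbered cultures were handled together, so a pairing by number stays unsettled. With the replicate block Erap1 kept 0.35 and was not called (limma adjusted p = 0.0782). Signal over background limits Psmb8 and Tap1.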
